A study of Mus musculus with 11 samples.

Results

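The comparison described here is the difference between the effect of losing ZEB1 and the effect of losing ZEB2 in fasted mouse muscle. For each gene the log2 change from ZEB1 control to ZEB1 knockout was taken, and the log2 change from ZEB2 control to ZEB2 knockout was subtracted from it. All 11 of the 11 RNA sequencing libraries of the series entered, chosen by their labelled group: 5 of the ZEB1 line and 6 of the ZEB2 line. ZEB1 controls (2 libraries) were ZEB1 flx/flx and ZEB1 knockouts (3 libraries) were ZEB1 flx/flx; HSACre, while ZEB2 controls (3 libraries) were ZEB2 flx/flx and ZEB2 knockouts (3 libraries) were ZEB2 flx/flx; HSACre. Every group was fasted for 36 h, a treatment that makes skeletal muscle waste, and gastrocnemius, a mixed-fibre calf muscle, was pooled from 2 mice for each library. HSACre is a recombinase under the skeletal actin promoter, active in myofibres, so other cells of the whole muscle should keep both genes. No group carried HSACre without floxed alleles, so knockout and presence of Cre cannot be told apart within a line. Since both knockouts carry HSACre, a shift of equal size in both lines subtracts out of the difference. Ages were not stated in the labels used here.

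ZEB1 and ZEB2 are related transcription factors with zinc fingers at both ends of the protein that bind E-box sequences such as CACCTG. Both are best known for silencing epithelial genes during epithelial to mesenchymal transition, and ZEB1 has also been described as a brake on muscle differentiation genes in myoblasts. Because they share a binding sequence, the comparison asks which genes respond to the loss of one factor but not of the other, or respond in opposite directions. A positive difference means that the ZEB1 effect lies above the ZEB2 effect, and it can arise from a gene higher in ZEB1 knockouts, lower in ZEB2 knockouts, or both.

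Library totals ranged from 27.3 to 46.3 M estimated counts. The 8 myofibre markers examined, among them Acta1, Ckm and Myh4, were abundant in all libraries (lowest value 2642 CPM, for Myh1). Levels are given as CPM, counts scaled to a common library total, with TMM factors from edgeR to correct for library composition. Y-linked genes were at 0 CPM in 4 pools (ZEB1_control 2, ZEB1_KO 1, ZEB1_KO 2 and ZEB2_control 3) and at 117.7 to 378.2 CPM in the other 7, which include all 3 ZEB2 knockout pools. Xist, an RNA of female cells, was at 0.29 to 3.29 CPM in ZEB1_KO 3, ZEB2_control 2, ZEB2_KO 2 and ZEB2_KO 3. In the remaining pools Xist was at 73.1 to 468 CPM. The labels used here do not give sex, but by these RNAs the sex make-up of the pools differed between groups. Of the 11 libraries, ZEB2_KO 3 lay farthest out on the first principal component (81.5, against -58.2 for ZEB1_control 2 at the other end), which held 42.8% of the variance. In a bulk sample, fewer cells of a type and less RNA per cell cannot be told apart. Each library being a pool of mice, p-values measure only the spread between these pools.

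Few single genes differed between the lines by more than the replicates allowed, while many small differences pointed the same way within gene groups. With edgeR's quasi-likelihood test and Benjamini-Hochberg adjustment, 0 of 15416 genes passed an adjusted p of 0.05 for the difference, which is 0% of genes tested, and the smallest adjusted p was 0.139. At an unadjusted p under 0.05, 1427 genes stood out, or 9.26% of those tested. Of these 784 (5.09%) had a ZEB1 effect above the ZEB2 effect and 643 (4.17%) below it. DESeq2 called 17 genes (0.11%) and limma-voom called 0. The ZEB1 effect alone had 499 genes at an unadjusted p under 0.05 (3.24%) and the ZEB2 effect 5113 (33.2%), with 0 edgeR calls in either and 21 and 2587 DESeq2 calls. The mean absolute log2 change was 0.27 for ZEB1 and 0.50 for ZEB2. Across the 15416 genes the effects of the knockouts had a Pearson r of 0.17 and a Spearman rho of 0.27, a description over genes that share libraries. The effects had opposite signs in 6008 genes, or 39% of those tested. Knockouts and controls did not overlap in 13.9% of genes in the ZEB1 line and 43.4% in the ZEB2 line. ZEB1 knockouts were above and ZEB2 knockouts below their controls without overlap in 92 genes (0.597%), and the reverse held in 39 (0.253%).

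Genes were then sorted into patterns by unadjusted p, as a description and not as calls. In the opposite pattern, both line effects had an unadjusted p under 0.05 and different signs. This held for 30 genes (0.195%), of which 18 (0.117%) were higher in ZEB1 knockouts and lower in ZEB2 knockouts and 12 (0.0778%) the reverse. Effects of the same sign in both lines held for 132 genes (0.856%), with 34 (0.221%) higher and 98 (0.636%) lower in both. In the single-line pattern, the difference and the effect in 1 line had an unadjusted p under 0.05 while the other line moved by less than 0.25 on the log2 scale. This held for 867 genes (5.62%): 39 (0.253%) higher and 11 (0.0714%) lower in ZEB1 knockouts alone, and 374 (2.43%) higher and 443 (2.87%) lower in ZEB2 knockouts alone. The pattern counts depended on the control pair of the ZEB1 line. Without ZEB1_control 3 there were 8 opposite and 139 single-line genes, and without ZEB1_control 2 there were 204 opposite genes.

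**Figure D1:**
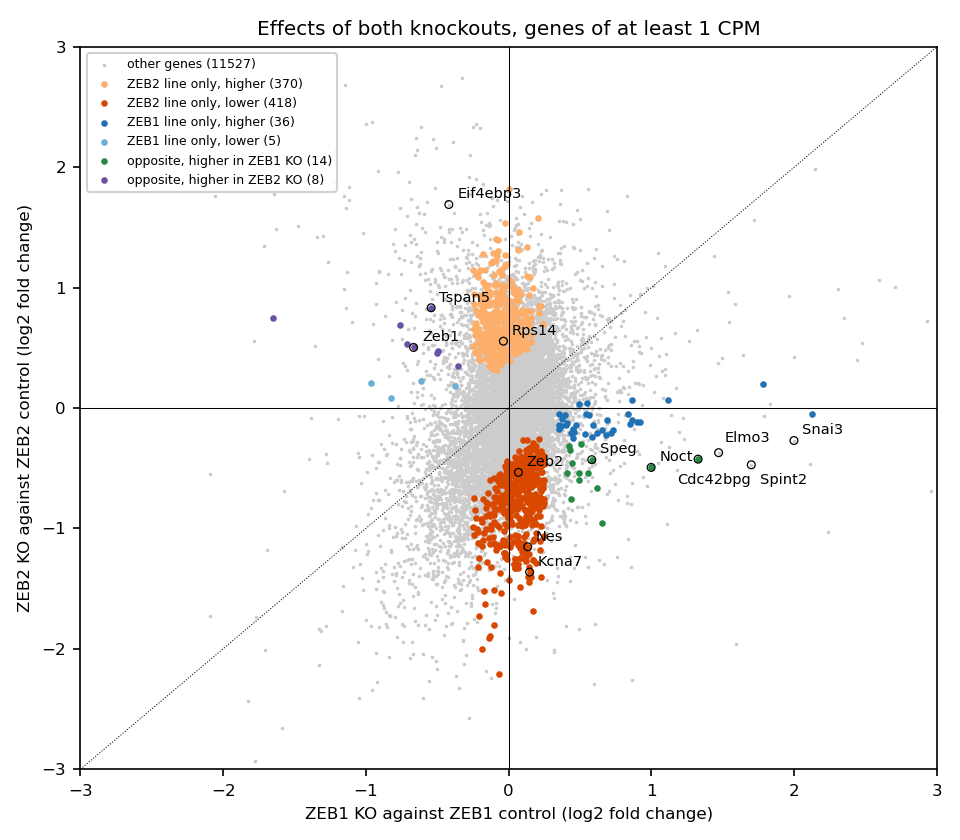
Log2 fold change in the ZEB1 line (horizontal axis) against that in the ZEB2 line (vertical axis) for 12378 genes with a mean of at least 1 CPM; coloured points are genes of the opposite and single-line patterns, with numbers of genes in brackets, and 10 genes lie outside the plotted range. The dotted diagonal marks equal effects. The cloud is wider vertically than horizontally, and Cdc42bpg, Noct and Speg lie to the lower right of it, Zeb1 and Tspan5 to the upper left.

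The targeted genes themselves showed a pattern that was not symmetric. Zeb1 (GRCm38 chromosome 18, 5591860 to 5775467, plus strand) was measured at 41.2 and 51.1 CPM in ZEB1 control pools and at 28.4, 28.6 and 30.4 CPM in ZEB1 knockout pools. In the ZEB2 line it stood at 47.7, 52.1 and 43.7 CPM in controls and at 67.2, 60.2 and 76.0 CPM in knockouts. The groups did not overlap in either line, with knockouts below controls in the ZEB1 line and above them in the ZEB2 line. The difference of effects was -1.17 (SE 0.20, edgeR adjusted p = 0.350, DESeq2 adjusted p = 0.00212), made of -0.67 in the ZEB1 line and 0.50 in the ZEB2 line, and was the fifth smallest unadjusted p of all genes tested. Zeb2 (chromosome 2, 44983632 to 45117395, minus strand) was measured at 20.8 and 18.7 CPM in ZEB1 control pools and at 21.8, 19.7 and 20.7 CPM in ZEB1 knockout pools, which overlap. In the ZEB2 line it stood at 24.1, 23.1 and 25.8 CPM in controls and at 18.3, 14.4 and 17.6 CPM in knockouts, with every knockout below every control. Its difference was 0.60 (SE 0.19, edgeR adjusted p = 0.516, DESeq2 adjusted p = 0.317). The higher Zeb1 level was thus measured in ZEB2 knockouts, while Zeb2 in ZEB1 knockouts was 0.07 (SE 0.14) above its controls on the log2 scale. The counts are per gene and so also take in exons that Cre does not remove.

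Among genes of the opposite pattern that were higher in ZEB1 knockouts and lower in ZEB2 knockouts, Cdc42bpg had the smallest p of all genes. It encodes MRCK gamma, a kinase that acts downstream of the small GTPase Cdc42 on the actomyosin cytoskeleton. Cdc42bpg stood at 6.34 and 5.84 CPM in ZEB1 control pools and at 15.2, 16.9 and 13.8 CPM in ZEB1 knockout pools. In ZEB2 control pools it was at 6.18, 5.67 and 6.86 CPM and in ZEB2 knockout pools at 5.11, 4.07 and 4.79 CPM. ZEB1 knockouts lay far above all other libraries, and ZEB2 knockouts lay just below all controls of either line. The difference was 1.75 on the log2 scale (SE 0.23), made of 1.33 (SE 0.17) and -0.42 (SE 0.15), adjusted p = 0.139 by edgeR and 3.72e-07 by DESeq2. When any 1 library was left out, it ran from 1.66 to 1.82.

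Noct encodes nocturnin, a rhythmic phosphatase of NADP(H). It stood at 6.94 and 6.51 CPM in ZEB1 control pools, at 12.9, 14.4 and 13.03 CPM in ZEB1 knockout pools, at 7.36, 9.21 and 10.9 CPM in ZEB2 control pools and at 6.54, 6.83 and 6.17 CPM in ZEB2 knockout pools. Knockouts and controls were separate in both lines and in opposite directions. The difference was 1.49 (SE 0.24, adjusted p = 0.239 in edgeR and 0.000364 in DESeq2), and ZEB2 controls were higher than ZEB1 controls by 0.45 (SE 0.18) on the log2 scale. Myh10, a non-muscle myosin heavy chain, had a difference of 1.19 (SE 0.24, DESeq2 adjusted p = 0.0244) from 0.43 in the ZEB1 line and -0.75 in the ZEB2 line. However, ZEB1_KO 2 (24.4 CPM) overlapped its controls (24.4 and 22.7 CPM). Its ZEB2 controls were also higher than its ZEB1 controls, by 0.61 (SE 0.18) on the log2 scale.

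The remaining named genes of this pattern passed neither test. Speg, a kinase that helps organise the junctions between T-tubules and sarcoplasmic reticulum, stood at 170 and 138 CPM in ZEB1 control pools and at 266, 195 and 230 CPM in ZEB1 knockout pools. In the ZEB2 line Speg stood at 194, 194 and 226 CPM in controls and at 172, 157 and 126 CPM in knockouts, again without overlap. Genes of glucose and amino acid handling were also among them: Gpt, an alanine aminotransferase, had a difference of 1.09 (SE 0.26) and Gys1, the muscle glycogen synthase, one of 0.90 (SE 0.24). Gys1 shares 3253 bases with Ruvbl2 on the opposite strand, and no source used here states whether counting used strand. Zfp568, a zinc-finger repressor, and Ripor2, a regulator of the GTPase RhoA, had differences of 1.09 (SE 0.29) and 1.28 (SE 0.34).

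Genes lower in ZEB1 knockouts and higher in ZEB2 knockouts, as Zeb1 was, numbered 12 against 18 of the reverse, and this order was not stable. It turned to 18 against 13 with DESeq2, 24 against 18 with a replicate block within line, 140 against 64 without ZEB1_control 2, 22 against 15 without ZEB1_KO 1 and 19 against 17 without ZEB2_KO 1. Tspan5, a tetraspanin that escorts the protease ADAM10, stood at 4.21 and 4.72 CPM in ZEB1 control pools and at 3.18, 2.93 and 3.08 CPM in ZEB1 knockout pools. In ZEB2 control pools it was at 5.35, 4.45 and 3.98 CPM and in ZEB2 knockout pools at 6.87, 7.43 and 10.2 CPM. Neither line overlapped, and the difference was -1.38 (SE 0.29, adjusted p = 0.516 in edgeR and 0.0385 in DESeq2). Ndor1, a diflavin reductase, had a difference of -1.45 (SE 0.37), but its controls were also apart, with ZEB2 controls lower than ZEB1 controls by 1.06 on the log2 scale. Ndor1 overlaps Tmem203 on the opposite strand over 584 bases, and Tmem203 had a difference of -0.92 (SE 0.26). Coro2b, an actin-binding coronin, had a difference of -0.70 (SE 0.19) and Mb21d2 one of -0.97 (SE 0.28). Pcdhgc4 had a difference of -0.95 (SE 0.30), and as a member of the gamma-protocadherin cluster, whose transcripts share constant exons, its count is uncertain.

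Outside the sorted patterns, Wwtr1, which encodes the Hippo pathway coactivator TAZ, and Smad1, a transducer of BMP signals, had differences of -1.02 (SE 0.26) and -1.22 (SE 0.34). Wwtr1 stood at 40.3 and 50.2 CPM in ZEB1 control pools, 34.0, 32.4 and 35.6 CPM in ZEB1 knockout pools, 46.8, 47.5 and 47.6 CPM in ZEB2 control pools and 57.4, 64.6 and 94.2 CPM in ZEB2 knockout pools. Its groups were separate in both lines, while those of Smad1 overlapped in the ZEB1 line. Bmp4, a BMP ligand, was on the same side (-0.88, SE 0.30). Most of the TGF-beta and BMP list lay on the other side, with 17 of 25 differences above 0 and a median of 0.18. An unadjusted p under 0.05 for the difference was reached by 1 member above 0 and 1 below.

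**Figure D2:**
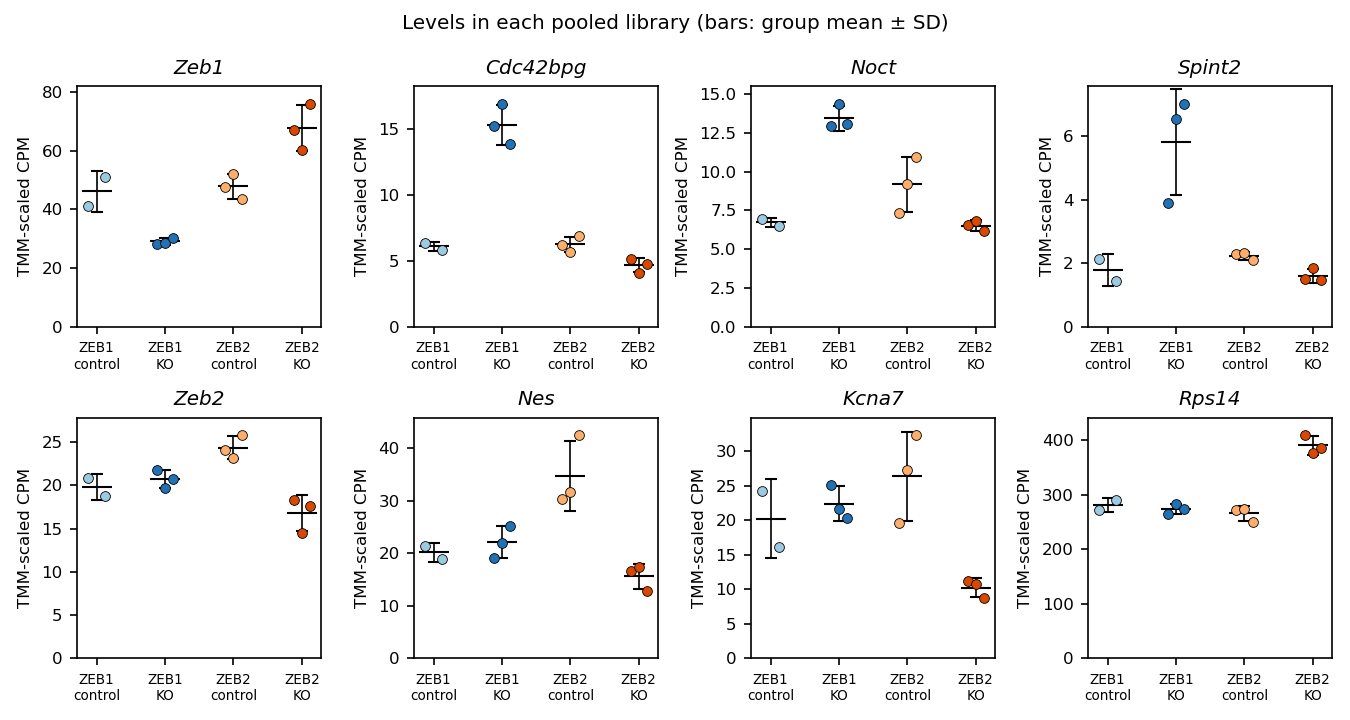
TMM-scaled CPM of 8 genes in each of the 11 libraries, by group, with bars at the group mean and 1 SD. Zeb1, Cdc42bpg, Noct and Spint2 separate ZEB1 knockouts from every other group, while Zeb2, Nes, Kcna7 and Rps14 separate ZEB2 knockouts from every other group.

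Spint2 and Hpn, which encode membrane proteins of epithelia, had their highest levels in ZEB1 knockouts. Spint2, whose product inhibits serine proteases, stood at 2.14 and 1.43 CPM in ZEB1 control pools and at 3.90, 6.54 and 7.02 CPM in ZEB1 knockout pools. In the ZEB2 line it was at 2.29, 2.32 and 2.10 CPM in controls and at 1.49, 1.86 and 1.46 CPM in knockouts. All ZEB1 knockouts lay above all other libraries, while ZEB2 knockouts lay below their controls without overlap, with an effect of -0.47 (SE 0.26) that kept it out of the single-line pattern. Its difference was 2.17 (SE 0.40, adjusted p = 0.448 in edgeR and 0.00246 in DESeq2). Hpn, which encodes hepsin, a membrane serine protease, stood at 3.75 and 3.95 CPM in ZEB1 control pools, at 7.08, 6.60 and 7.89 CPM in ZEB1 knockout pools and at 2.79 to 3.68 CPM across all 6 libraries of the ZEB2 line. Hpn fitted the pattern of ZEB1 knockouts alone, as only they exceeded 3.95 CPM, and the difference was 1.01 (SE 0.25, edgeR adjusted p = 0.516).

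Further genes of that pattern were also higher in ZEB1 knockouts. Cdkl2, a CDK-like kinase, had a difference of 0.96 (SE 0.24), and Sort1, the sorting receptor sortilin that takes part in GLUT4 vesicle formation, one of 0.83 (SE 0.23). Cmtm4, Catsper4, Ciapin1 and Rhobtb2 ranged from 0.75 to 1.58. Snai3, a Snail-family repressor, lay just outside the pattern because its ZEB2 effect was -0.27. It stood at 52.5, 13.97 and 28.6 CPM in ZEB1 knockout pools and at 6.47 to 13.3 CPM in the 8 other libraries (difference 2.27, SE 0.59, DESeq2 adjusted p = 0.0657). Snai3 overlaps Gm20388 on the opposite strand over 6526 bases. On the low side were Xk, a membrane transport protein of the Kell complex (-0.91, SE 0.31), Igfbp4, an IGF-binding protein (-0.56, SE 0.23), Klf5, a Krüppel-like factor (-0.84, SE 0.35), and Pcdhgb7 of the gamma-protocadherin cluster (-1.17, SE 0.48).

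Epithelial genes, a list of ZEB targets and junction proteins, had a median difference of 0.56, against 0.060 over all genes tested. Of 29 listed genes 13 were abundant enough to be tested, and 10 of these were above 0 (all genes: 54.6%). An unadjusted p under 0.05 for the difference was reached by 4, all above 0 (all genes: 5.09%). These 4 were Spint2, Elmo3, Crb3 and Marveld2. The 3 members below 0 reached down to -1.93. The median was 0.70 in the ZEB1 line and -0.05 in the ZEB2 line. In the ZEB1 line 8 members had an unadjusted p under 0.05 above 0 and 0 below (all genes, both directions: 3.24%). In the ZEB2 line 3 did so above 0 and 1 below (all genes, both directions: 33.2%). Elmo3, an engulfment and motility adaptor, stood at 1.58 and 1.01 CPM in ZEB1 control pools, 2.73, 4.35 and 3.74 CPM in ZEB1 knockout pools and at most 1.39 CPM in the ZEB2 line (difference 1.84, SE 0.43).

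Crb3, an apical polarity protein, and Marveld2, tricellulin of tight junctions, were near the limit of detection outside ZEB1 knockouts. Crb3 had 4 and 1 counts in ZEB1 control pools, 50, 23 and 33 in ZEB1 knockout pools and at most 12 in any library of the ZEB2 line. Marveld2 had 21 and 12 counts in ZEB1 control pools, 83, 102 and 47 in ZEB1 knockout pools and at most 32 in the ZEB2 line. A gene such as Crb3 can pass the low-count filter through the group in which it is high, so the 13 tested members do not stand for the whole list. Keratins showed a different picture: Krt18, of simple epithelia, had a log2 effect of 2.15 in the ZEB1 line and 1.98 in the ZEB2 line (difference 0.17, SE 0.89). Cdh1, which encodes E-cadherin, had a difference of 0.98 (SE 0.73) from -0.17 and -1.15. Among omissions of 1 library the list's median difference stayed between 0.44 and 0.79.

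Promoter sequences are shown for 3 of the genes that were higher in ZEB1 knockouts, and for Tspan5, because CACCTG is the core sequence that ZEB1 and ZEB2 are known to bind. They come from RefSeq (GRCm38.p6), run 5′ to 3′ on the strand of the gene from 250 bases before the annotated start to 50 bases after it, and capitals mark CACCTG on either strand (CAGGTG when read on the other). Spint2 (chr7:29281928-29282227, minus strand) holds 3 matches, and its RefSeq start lies upstream of the GENCODE gene. Noct (chr3:51224197-51224496, plus strand) holds 1. A Crb3 promoter (chr17:57061981-57062280, plus strand) holds 4. Tspan5 (chr3:138741958-138742257, plus strand) holds 0.
Spint2: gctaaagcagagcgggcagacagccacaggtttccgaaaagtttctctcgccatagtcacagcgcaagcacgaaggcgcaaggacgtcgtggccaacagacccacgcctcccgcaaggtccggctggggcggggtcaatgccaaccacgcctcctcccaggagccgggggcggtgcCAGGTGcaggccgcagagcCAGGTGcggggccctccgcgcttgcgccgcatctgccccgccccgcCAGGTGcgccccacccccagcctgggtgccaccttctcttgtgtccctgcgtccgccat
Noct: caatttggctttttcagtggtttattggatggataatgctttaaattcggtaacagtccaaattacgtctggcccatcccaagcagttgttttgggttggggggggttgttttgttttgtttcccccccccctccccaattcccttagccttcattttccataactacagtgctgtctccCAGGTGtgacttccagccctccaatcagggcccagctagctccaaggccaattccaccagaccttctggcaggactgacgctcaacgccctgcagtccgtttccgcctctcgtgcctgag
Crb3: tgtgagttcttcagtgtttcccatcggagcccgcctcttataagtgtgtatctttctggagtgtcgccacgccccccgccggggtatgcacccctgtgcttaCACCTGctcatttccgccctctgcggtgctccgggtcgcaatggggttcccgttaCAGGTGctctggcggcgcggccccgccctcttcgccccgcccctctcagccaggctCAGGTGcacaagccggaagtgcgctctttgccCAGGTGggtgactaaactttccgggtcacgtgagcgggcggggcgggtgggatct
Tspan5: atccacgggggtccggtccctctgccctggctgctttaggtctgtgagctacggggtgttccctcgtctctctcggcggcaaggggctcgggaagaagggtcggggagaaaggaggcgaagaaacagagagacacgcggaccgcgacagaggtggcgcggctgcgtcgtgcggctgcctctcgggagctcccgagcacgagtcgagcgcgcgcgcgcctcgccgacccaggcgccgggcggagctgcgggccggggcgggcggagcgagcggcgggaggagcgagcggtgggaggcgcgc
Of all 32851 promoters of this length 20.2%, from 22.6% of 27025 genes, held the motif. Of the genes named outside the lists, 39 of 54 had a promoter in the table. A match was found in 4 of 5 genes of the opposite pattern higher in ZEB1 knockouts and in 5 of 6 genes higher in ZEB1 knockouts alone. It was found in 0 of 4 opposite genes higher in ZEB2 knockouts and in 1 of 7 genes higher in ZEB2 knockouts alone. Genes lower in ZEB2 knockouts alone had it in 3 of 5, and the tested epithelial genes in 7 of 8. A gene with several promoters was counted if any of them matched. By promoter, the shares in ZEB1 knockouts were 6 of 10 (opposite, higher) and 6 of 9 (higher alone). In ZEB2 knockouts they were 0 of 4 (opposite, higher), 1 of 14 (higher alone) and 4 of 9 (lower alone). The tested epithelial genes had 10 of 13. The shorter CACCT, which CACCTG contains and which 55.2% of all genes held, was in 4 of 5 opposite genes higher in ZEB1 knockouts and in 3 of 4 higher in ZEB2 knockouts. It was in 5 of 6 genes higher in ZEB1 knockouts alone and in 3 of 7 higher in ZEB2 knockouts alone. The epithelial list was written to hold ZEB targets, and members could pass the low-count filter through ZEB1 knockouts. Its share can therefore not be read as a result of these data. Marveld2 is counted both in that list and among genes higher in ZEB1 knockouts alone. The groups are small, their base composition was not matched, and a match describes letters in this window and no binding.

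Genes lower in ZEB2 knockouts with little movement in ZEB1 knockouts included Nes, Kcna7 and Srl. Nes, the intermediate filament nestin, stood at 21.4 and 18.9 CPM in ZEB1 control pools, 19.1, 21.99 and 25.2 CPM in ZEB1 knockout pools, 30.2, 31.6 and 42.4 CPM in ZEB2 control pools and 16.6, 17.4 and 12.9 CPM in ZEB2 knockout pools. All ZEB2 knockouts were below all other libraries, and ZEB2 controls were above all libraries of the ZEB1 line. The difference was 1.29 (SE 0.26, adjusted p = 0.516 in edgeR and 0.0223 in DESeq2), and controls of the ZEB2 line exceeded those of the ZEB1 line by 0.79 (SE 0.20).

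Kcna7, a potassium channel of skeletal muscle, stood at 24.3 and 16.2 CPM in ZEB1 control pools, 25.2, 21.7 and 20.4 CPM in ZEB1 knockout pools, 19.5, 27.3 and 32.3 CPM in ZEB2 control pools and 11.3, 10.8 and 8.73 CPM in ZEB2 knockout pools. ZEB2 knockouts were again the 3 lowest libraries (difference 1.51, SE 0.32, DESeq2 adjusted p = 0.0223). Srl, the calcium-binding protein sarcalumenin of the sarcoplasmic reticulum, was abundant and tight. It stood at 799 and 740 CPM in ZEB1 control pools, 840, 912 and 829 CPM in ZEB1 knockout pools, 878, 905 and 1016 CPM in ZEB2 control pools and 634, 626 and 550 CPM in ZEB2 knockout pools. The lines moved apart without overlap in either (difference 0.79, SE 0.18, DESeq2 adjusted p = 0.0153), by 0.16 in the ZEB1 line and -0.63 in the ZEB2 line.

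Other named genes followed on the same side. Plec, the linker protein plectin, had a difference of 1.00 (SE 0.24), Myom3, an M-band protein, 1.06 (SE 0.27) and Ank2, an ankyrin, 0.66 (SE 0.17). Acot11, an acyl-CoA thioesterase, stood at 4.06, 3.96 and 3.18 CPM in ZEB2 knockout pools and at 8.15 to 9.90 CPM in their controls (difference 1.67, SE 0.36, DESeq2 adjusted p = 0.0223). P2ry2, a receptor for extracellular nucleotides, had a difference of 0.91 (SE 0.20). The other high-ranking genes on this side were Kcnma1, a calcium-activated potassium channel (1.04, SE 0.25), Klf12 (1.30, SE 0.31), Lmo7 (0.88, SE 0.21) and Shisa2 (1.16, SE 0.28).

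As lists, excitation-contraction coupling genes had a median difference of 0.46 (18 of 21 above 0) and sarcomere and dystrophin complex genes one of 0.29 (18 of 26 above 0), where 54.6% of all genes were above 0. In the coupling list the medians were 0.04 in the ZEB1 line and -0.28 in the ZEB2 line. Hrc, a calcium-binding protein of the sarcoplasmic reticulum (0.81, SE 0.25), and Ryr1, the calcium release channel (0.50, SE 0.20), lay with Kcna7. In the sarcomere list the ZEB2 effect was above 0 in 11 genes and below 0 in 15. For the difference 7 of its genes had an unadjusted p under 0.05 with a value above 0 (all genes: 5.09%) and 0 with a value below 0 (4.17%). The 7 included Ttn, the giant protein titin (0.58, SE 0.19), and Myom2 (1.00, SE 0.30). Over omissions of 1 library the medians ran from 0.27 to 0.56 and from 0.21 to 0.35.

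Neuromuscular junction and satellite cell genes had medians of 0.41 (14 of 19 above 0) and 0.53 (20 of 25 above 0). Colq, which anchors acetylcholinesterase at the synapse, had a difference of 1.29 (SE 0.35), Dok7, an activator of the receptor kinase MuSK, 1.26 (SE 0.43), and Myh8, the perinatal myosin, 1.04 (SE 0.34). Colq overlaps Gm49387 on the same strand over 38439 bases, so its count is uncertain. Without ZEB1_control 3 the list medians were 0.19 and 0.11. With the Y-linked level of each pool as a covariate they were 0.22 and 0.26.

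On the other side, genes of the cytosolic ribosome were higher in ZEB2 knockouts and, by less, in ZEB1 knockouts. The ZEB1 effect was above 0 in 51 of 53 (all genes: 7899 of 15416), and the ZEB2 effect in 53 (all genes: 7184). All 53 had a difference below 0 (all genes: 45.4%), with a median of -0.31 made of 0.10 in the ZEB1 line and 0.41 in the ZEB2 line. Of these 13 had an unadjusted p under 0.05 with a value below 0 (all genes: 4.17%), and 0 passed in edgeR. Rps14, of the small subunit, stood at 271 and 290 CPM in ZEB1 control pools, 265, 282 and 274 CPM in ZEB1 knockout pools, 273, 274 and 250 CPM in ZEB2 control pools and 409, 376 and 386 CPM in ZEB2 knockout pools. The 8 libraries outside ZEB2 knockouts lay within a narrow band, and the difference was -0.59 (SE 0.17, adjusted p = 0.516 in edgeR and 0.0496 in DESeq2). Rps14 overlaps Ndst1 on the opposite strand over 1553 bases.

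Rplp1 (-0.44, SE 0.17), of the large subunit, and Fau, which encodes a fusion of a ubiquitin-like protein with a ribosomal one (-0.58, SE 0.17), followed Rps14. The mean log2 CPM of the ribosomal list was 7.93 and 7.97 in ZEB1 control pools, 8.04, 8.05 and 8.03 in ZEB1 knockout pools, 8.01, 7.96 and 7.84 in ZEB2 control pools and 8.41, 8.32 and 8.28 in ZEB2 knockout pools. ZEB2 knockouts were above all other libraries, and ZEB1 knockouts were above both ZEB1 controls. Omission of 1 library moved the median difference only between -0.38 and -0.26, and upper-quartile scaling gave -0.21. Ribosomal protein genes have many near-identical processed pseudogenes, so their estimated counts may have been shared with copies.

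Further named genes were higher in ZEB2 knockouts. Fis1, a mitochondrial fission protein, stood at 77.9 and 87.8 CPM in ZEB1 control pools, 75.4, 82.3 and 71.0 CPM in ZEB1 knockout pools, 75.3, 80.0 and 76.5 CPM in ZEB2 control pools and 108, 108 and 109 CPM in ZEB2 knockout pools. The knockouts of the ZEB2 line were nearly identical to each other and above all other libraries (difference -0.61, SE 0.17). Gtf2b, the general transcription factor TFIIB, had a difference of -0.97 (SE 0.25), Sumo3, a ubiquitin-like modifier, -0.68 (SE 0.19), Mcrip1 -0.82 (SE 0.23) and Ccdc77 -1.31 (SE 0.36). Sumo3 overlaps Gm49325 on the same strand over 12135 bases, so its count is uncertain. Eif4ebp3, a translation repressor that binds the cap-binding protein eIF4E, stood at 3.10, 3.40 and 2.45 CPM in ZEB2 knockout pools and at 0.6998 to 1.64 CPM in the other 8 libraries (difference -2.11, SE 0.47, DESeq2 adjusted p = 0.0449). It overlaps another annotated gene on the same strand, so its count is uncertain. Kctd13, an adaptor of a cullin ligase, was on the same side (-1.01, SE 0.28).

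FoxO targets and the proteasome had the lowest median differences of all 37 lists, and both depended on 1 control library. FoxO and glucocorticoid response genes, which are induced by fasting hormones, had a median difference of -1.10 (23 of 24 below 0), from 0.10 in the ZEB1 line and 1.26 in the ZEB2 line. Their mean log2 CPM was 5.91 and 7.54 in ZEB1 control pools, 7.53, 6.34 and 6.89 in ZEB1 knockout pools, 6.29, 6.94 and 6.21 in ZEB2 control pools and 7.39, 7.58 and 8.12 in ZEB2 knockout pools. The ZEB1 controls lay far apart, and ZEB1_control 3 lay above the lowest ZEB2 knockout. Without ZEB1_control 3 the median difference was -0.16, and without ZEB1_control 2 it was -1.76. With the Y-linked level of each pool as a covariate it was -0.35.

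An unadjusted p under 0.05 was reached by 2 of the 24, near the 9.26% of all genes tested. Cebpd, a stress-induced transcription factor, stood at 24.7 and 242 CPM in ZEB1 control pools, 120, 39.9 and 51.7 CPM in ZEB1 knockout pools, 40.3, 116 and 38.1 CPM in ZEB2 control pools and 165, 226 and 371 CPM in ZEB2 knockout pools. ZEB2 knockouts lay above their controls, but ZEB1_control 3 reached the level of ZEB2 knockouts (difference -2.88, SE 1.14, edgeR adjusted p = 0.516). Irs2, an adaptor of the insulin receptor, had a difference of -1.64 (SE 0.68) and Foxo1, a driver of atrophy genes, one of -1.55 (SE 0.75).

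The proteasome, which degrades ubiquitin-tagged proteins, had a median difference of -0.70 with 32 of 32 subunit genes below 0. The medians were 0.06 in the ZEB1 line and 0.79 in the ZEB2 line. For the difference, 7 genes had an unadjusted p under 0.05 with a value below 0 (all genes: 4.17%). Among them were the catalytic subunit Psmb5 (-0.91, SE 0.36), Psmb4 (-0.93, SE 0.36) and the activator Psme4 (-1.58, SE 0.60). The median was -0.28 without ZEB1_control 3, -1.11 without ZEB1_control 2 and -0.23 with the Y-linked covariate. Autophagy and lysosome genes had a median of -0.36 (27 of 30 below 0), and their range over omissions was -0.50 to -0.20. Bnip3l, a mitophagy receptor, had a difference of -1.12 (SE 0.43).

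Atrophy E3 ligases were mixed, with 8 of 22 above 0 and a median of -0.34 (-0.08 with the Y-linked covariate). An unadjusted p under 0.05 was reached by 3 above 0 (all genes: 5.09%) and 3 below (all genes: 4.17%). Those above were Asb2 (1.01, SE 0.37), Fbxo40 (0.72, SE 0.28), a ligase that acts on the insulin signalling adaptor IRS1, and Trim55, the titin-associated MuRF2 (0.57, SE 0.23). Those below were Fbxo30 (-1.78, SE 0.72), Mdm2, the ligase of p53 (-0.83, SE 0.35), and Ubb, a polyubiquitin gene (-1.25, SE 0.55). Insulin, mTOR and translation genes (median -0.24, -0.06 without ZEB1_control 3), ER stress genes (-0.30) and NRF2 and glutathione genes (-0.27) lay on the negative side. With the Y-linked covariate these 3 medians were -0.08, -0.13 and -0.03. In these lists Eef2k, the kinase of elongation factor 2, was an exception at 1.31 (SE 0.35). Atf5 (-1.17, SE 0.44), Sesn2 (-1.07, SE 0.40) and Fth1, the ferritin heavy chain (-0.45, SE 0.18), followed the lists.

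**Figure D3:**
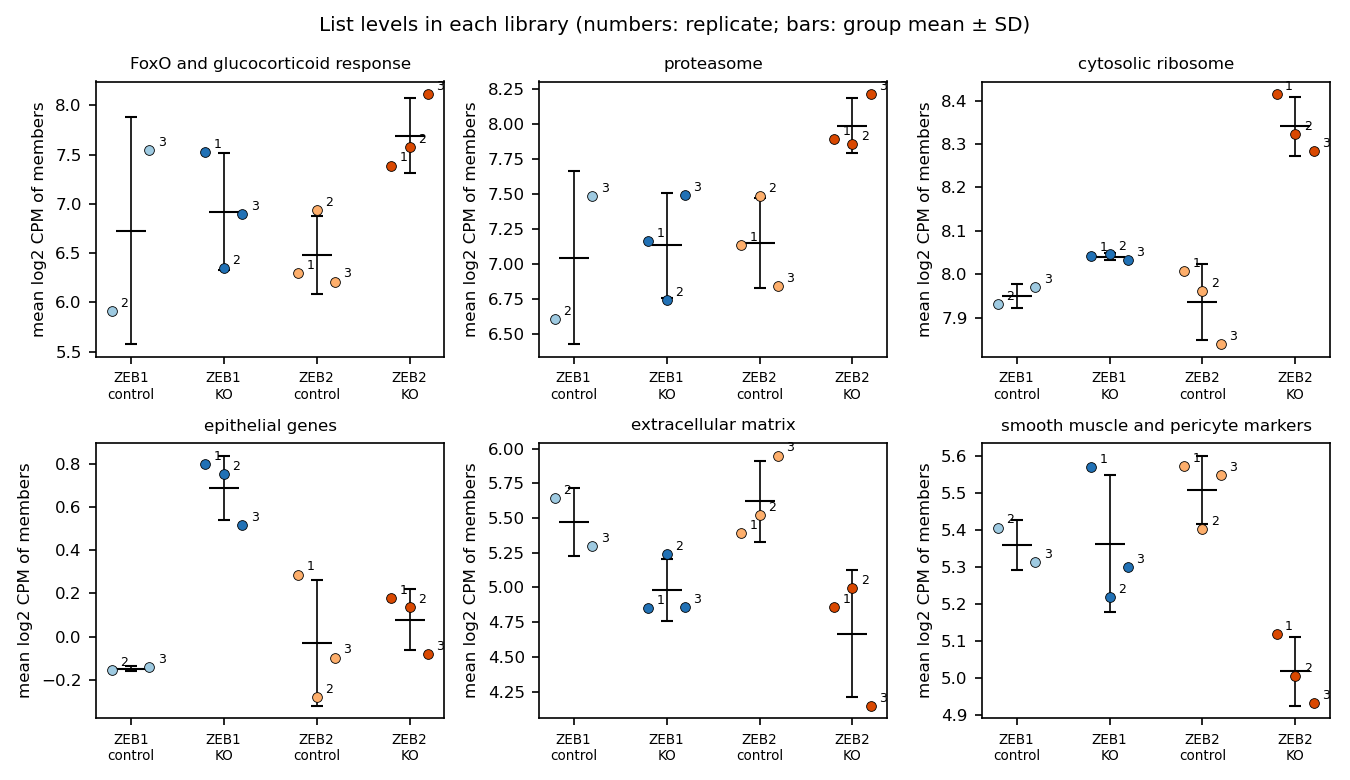
Mean log2 CPM of the tested members of 6 gene lists in each library, with the replicate number beside each point and bars at the group mean and 1 SD. The 2 ZEB1 controls lie far apart for the FoxO and proteasome lists (5.91 and 7.54 for the former) and close together for the ribosomal and epithelial lists.

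Extracellular matrix genes were lower in knockouts of both lines, and more so in the ZEB2 line. Their median was -0.45 in the ZEB1 line and -0.87 in the ZEB2 line, with a median difference of 0.48 and 29 of 34 above 0. An unadjusted p under 0.05 for the difference (all genes: 9.26%) was reached by 2: Lama4, a laminin chain of vessel and muscle basement membranes (0.81, SE 0.32), and Hspg2, the basement membrane proteoglycan perlecan (0.61, SE 0.27). Fibrillar collagen genes had large effects in both lines, as with Col1a1 at -0.91 and -1.82 and Col3a1 at -0.89 and -1.61. The list's median difference ran from 0.28 to 0.69 over omissions and was 0.23 with the Y-linked covariate. Tendon markers had a median difference of 0.44, from -0.90 and -1.33, with 0 of 12 at an unadjusted p under 0.05.

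Smooth muscle and pericyte markers differed more evenly, with 14 of 14 above 0, a median of 0.48 and a range of 0.36 to 0.56 over omissions. The medians were 0.04 in the ZEB1 line and -0.49 in the ZEB2 line. For the difference, 6 members had an unadjusted p under 0.05 with a value above 0 (all genes: 5.09%). Acta2, smooth muscle actin, stood at 52.3 and 54.9 CPM in ZEB1 control pools, 64.9, 54.4 and 48.1 CPM in ZEB1 knockout pools, 54.1, 52.1 and 57.5 CPM in ZEB2 control pools and 35.9, 36.6 and 28.6 CPM in ZEB2 knockout pools. ZEB2 knockouts were the 3 lowest libraries (difference 0.76, SE 0.22). Myl9 (0.70, SE 0.22), a smooth muscle myosin light chain, and Mcam (0.68, SE 0.22) were similar, while Des, which myofibres also express, was at 0.07.

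Markers of other non-muscle cells lay mostly on the same side, where 54.6% of all genes were above 0. Macrophages had a median difference of 0.39 (17 of 20 above 0), Schwann cells 0.43 (11 of 12) and adipocytes 0.58 (14 of 15). An unadjusted p under 0.05 with a value above 0 was reached by 3 macrophage markers (all genes: 5.09%). Of the Schwann cell and adipocyte markers 0 reached it in either direction. Over omissions of 1 library these medians ran from 0.22 to 0.57, from 0.08 to 0.76 and from 0.25 to 1.005. F13a1, a macrophage transglutaminase, stood at 9.46, 9.39 and 8.70 CPM in ZEB2 knockout pools and at 12.2 to 17.2 CPM in the 8 other libraries (difference 0.62, SE 0.22). Fibroblast markers had a median of 0.04 and endothelial markers one of 0.11. HSACre is driven by a myofibre promoter, and the part of cell content in these differences was not tested.

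Nuclear genes of oxidative metabolism differed by small amounts, with list medians above 0 in the ZEB1 line and near or below 0 in the ZEB2 line. Genes of the mitochondrial genome had medians of -0.04 in the ZEB1 line and -0.20 in the ZEB2 line. Nuclear OXPHOS genes had a median difference of 0.21 (39 of 47 above 0), with 30 of 47 having opposite signs in the lines (all genes: 39%), and medians of 0.11 and -0.09. Ndufs1, a complex I subunit, had the smallest p (0.68, SE 0.21), from 0.09 and -0.59. The median was 0.05 without ZEB2_KO 3 and 0.065 with the Y-linked covariate. PGC-1 and mitochondrial biogenesis genes had a median of 0.28, led by Perm1, a muscle regulator that acts with PGC-1 and the oestrogen-related receptors.

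Perm1 stood at 122 and 70.4 CPM in ZEB1 control pools, 202, 128 and 127 CPM in ZEB1 knockout pools, 94.0, 104 and 139 CPM in ZEB2 control pools and 52.2, 59.9 and 25.3 CPM in ZEB2 knockout pools. It was separate in both lines in opposite directions (difference 1.96, SE 0.51, adjusted p = 0.516 in edgeR and 0.0708 in DESeq2). Esrra, the oestrogen-related receptor alpha, was at 1.05 (SE 0.35). Fatty acid oxidation genes had a median of 0.25, with 0 of 31 at an unadjusted p under 0.05, and this became -0.04 without ZEB2_control 1. In glycolysis and glycogen genes (median 0.25), Gys1 was joined by Ppp1r3c, a glycogen-targeting phosphatase subunit (1.51, SE 0.62).

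Slow fibre genes had 19 of 19 differences above 0 but a median of only 0.24, 0 with an unadjusted p under 0.05, and a median of -0.03 without ZEB1_control 3. With the Y-linked covariate their median was 0.096. Fast fibre genes had a median of -0.14 and split by gene. Myh2, the myosin of fast oxidative fibres, was lower in both lines (-0.63 and -1.54, difference 0.91, SE 0.35), and Mylk2, the skeletal myosin light chain kinase, was higher in ZEB2 knockouts (difference -0.59, SE 0.23). Heat shock genes had a median of 0.21, with the co-chaperone gene Dnajb5 at 0.89 (SE 0.25) and Cryab, a small heat shock protein gene, at 0.75 (SE 0.30). Circadian clock genes had a median of -0.30, which became -0.004 without ZEB1_control 3.

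The other lists had medians near that of all genes or few tested members. Epithelial to mesenchymal transition repressors had a median of 0.05, antioxidant enzymes -0.05, immediate-early genes -0.01, TGF-beta and BMP genes 0.18, interferon response genes 0.09, genes of the mitochondrial genome 0.15, erythroid markers 0.16 and neutrophil and lymphocyte markers 0.36 over 8 genes. Interferon response genes were lower in both lines, with medians of -0.40 and -0.60. For these 8 lists between 0 and 4 members had an unadjusted p under 0.05 for the difference (all genes: 9.26%). Of the 11 transition repressors 2 did so above 0 and 1 below, and the list's differences ran from -1.17 to 2.27. Of the 25 antioxidant enzymes 1 did so above 0 and 3 below. Both of these shares were above that of all genes.

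**Figure D4:**
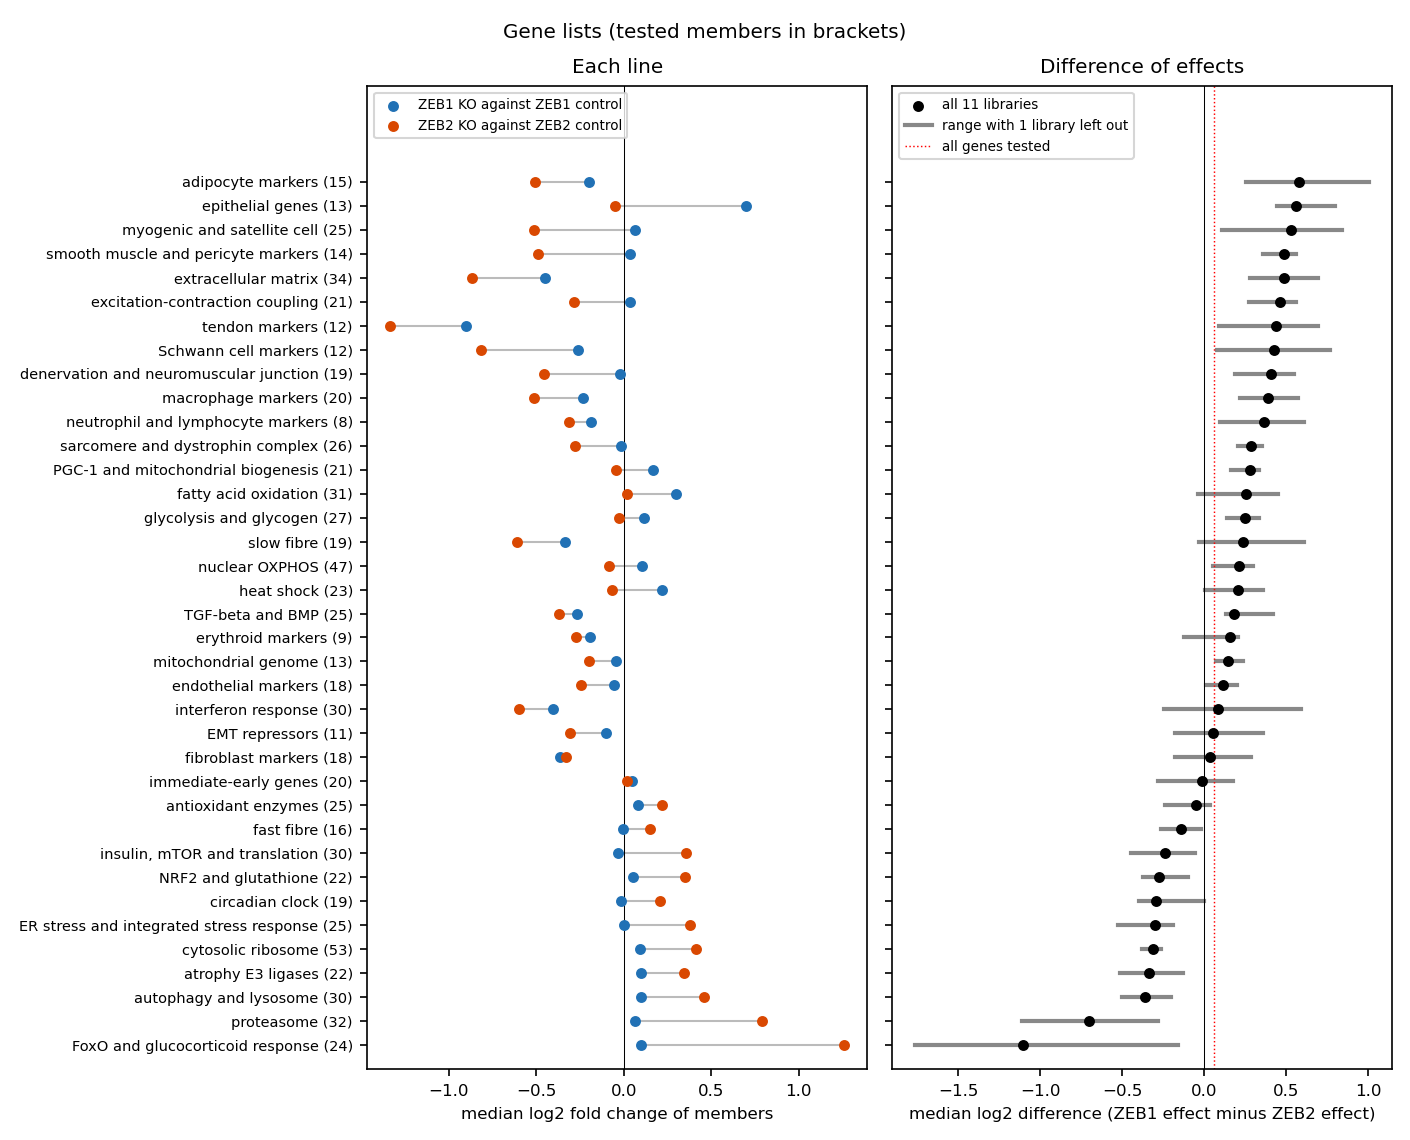
Medians of 37 gene lists, with the number of tested members in brackets. Left: median log2 fold change in each line. Right: median difference of effects, with the range when 1 library is left out (grey) and the median of all genes tested (0.060, dotted). The FoxO and proteasome lists have the lowest medians (-1.10 and -0.70) and long ranges, while the ribosomal and smooth muscle lists have short ones.

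Of the 17 genes that DESeq2 called, 11 (0.0714% of genes tested) had a ZEB1 effect above the ZEB2 effect. Besides the 12 genes described above, they comprised AW011738, a long non-coding RNA, and the gene models Gm14435, Gm12191, Gm10359 and Gm13394, chosen here after their values were seen. The last 3 are processed pseudogenes that moved in the ZEB1 line alone. Gm12191 was at 0 CPM in both ZEB1 controls and at 0.704 to 1.49 CPM in the other 9 libraries, and Gm13394 was at 338, 14.1 and 425 CPM in ZEB1 knockout pools against 3.05 to 5.88 CPM in the other 8. Reads of such copies can be assigned to or taken from their parent genes.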

How the data were processed

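RNA sequencing counts of 11 pooled gastrocnemius libraries were analysed. The authors deposited raw estimated counts as whole numbers, 1 value per gene and library. The submitters' processing notes name STAR, RSEM, DESeq2 and GRCm38, without versions, settings or strand option. Counts were fitted in R 4.3.3 with edgeR 4.0.16 (robust quasi-likelihood, 4 group means, TMM scaling) over all libraries, after filterByExpr (minimum count 10, minimum total 15) kept 15416 of 55385 genes, with 99.96% of counts. The biological coefficient of variation was 0.240. Adjusted p-values follow Benjamini-Hochberg over all genes tested, with a threshold of 0.05. SE is the absolute log2 value divided by the square root of F. DESeq2 1.42.0 and limma-voom (limma 3.58.1) were alternatives, as were other scalings, filters, covariates, a replicate block and omission of each library. The procedure was tested on simulated counts.

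Named genes were Zeb1, Zeb2, the 15 smallest p per direction of the difference, up to 8 per pattern and 3 per list, with a mean of at least 1 CPM outside lists and unnamed models passed over. Some genes that these rules name are not reported here. The members, the 37 lists and these rules were chosen with earlier results of these data known. Gene coordinates are from GENCODE M21 (GRCm38), where 54487 of 55385 identifiers matched with their version and 55144 without it. Overlaps with other annotated genes are stated for only some of the named genes. List levels are means of log2 CPM with a prior count of 2.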

Additional observations from a re-analysis of the deposited data

How the results depend on the processing

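The count of edgeR calls for the difference was 0 in the reported fit, 17 with DESeq2 and 2 without a low-count filter (Cdc42bpg and Gm12191), and ran from 0 to 3 over omissions of 1 library. For the ZEB1 effect it was 0, with 21 in DESeq2, 1 in limma-voom, 1 in limma-voom with sample weights and 6 without a filter, and 0 to 5 over omissions. For the ZEB2 effect it was 0, with 2587 in DESeq2, 2559 in limma-voom with sample weights and 348 without a filter. Genes at an unadjusted p under 0.05 for the difference numbered 1427, were 572 with the Y-linked level as covariate, and ran from 300 (without ZEB1_control 3) to 3127 (without ZEB1_control 2). Omission of ZEB2_control 3 gave 699 and of ZEB2_KO 3 gave 799. The opposite pattern ran from 8 to 204 genes, with 12 without ZEB2_control 3 and 19 without ZEB2_KO 3. The single-line pattern had 290 genes with the Y-linked covariate and from 139 to 974 over omissions, with 569 without ZEB1_KO 2, 334 without ZEB2_control 3 and 445 without ZEB2_KO 3. The cause of these shifts was not tested.

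Of the 1427 genes 54.9% were above 0, against 37.4% when only genes with a mean of at least 1 CPM were tested and 63.3% with upper-quartile factors. The median ZEB2 effect of all genes moved from -0.05 to -0.18 with upper-quartile factors. The difference changed sign for S100b (-0.017 with sample weights, -0.27 with the Y-linked covariate), Ddit4 (0.23) and Per1 (0.12) without ZEB1_control 3, and Slc4a1 (-0.13) without ZEB2_control 3. Over omissions these ran from -3.57 to 0.23, from -1.90 to 0.12 and from -0.13 to 1.66.

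The reported fit did not pair samples by replicate number, and whether the numbers mark pairs could not be settled. Same-numbered controls and knockouts had correlations of 0.465 and 0.174 in the ZEB1 line and 0.195, -0.0274 and -0.313 in the ZEB2 line, and not every library correlated best with its own number. These are correlations of deviations from group means. The 2 ZEB1 controls mirror each other in such deviations, so the correlations cannot decide the pairing. With a replicate block the count of calls was 0, as it was without one, so this count does not decide it either.

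Limits: the ZEB1 control group had 2 pools, which differed widely, and the difference adds the errors of 4 groups (median SE 0.35, against 0.26 and 0.24 for the line effects). All 3 ZEB2 knockout pools held Y-linked RNA, so that level, and with it the sex make-up of the pools, is partly tied to the groups. At a few counts per library, as with Crb3, counting error limits the size of any fold.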
